A study of Mus musculus with 35 samples.

Results

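Day 14 skin wounds of Col5a1CKO and WT mice were compared by bulk RNA-seq, with 7 wounds in each genotype. These 14 libraries were chosen by their titles out of 35 in the series, and the Col5a1CKO wounds that had received fibroblasts were left out. Col5a1CKO animals carried the tamoxifen-inducible Col1a2CreERT transgene and 2 floxed Col5a1 alleles (Col1a2CreERT: Col5a1fl/fl), whereas WT animals were Cre-negative Col5a1fl/fl littermates, so that both genotypes carried the floxed alleles. The Cre driver sits downstream of an enhancer of the pro alpha 2(I) collagen gene, which is active in fibroblasts, and keratinocytes, leukocytes and endothelium were not the cells in which deletion was driven. Animals of both sexes, aged 8 to 12 weeks and on a B6 background, were treated with tamoxifen before and after a full-thickness excision on the back. The labels of these wounds name no treatment but the wounding. The study names vehicle for its day 14 groups of 7 and not for its smaller day 14 groups. Which of these wounds had vehicle, and whether this differed between the 2 library sets described below, is not given. A punch biopsy of the middle of the wound was taken for RNA, so each library mixes all cells of that tissue.

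Type V collagen is a minor fibrillar collagen that sets the diameter of type I collagen fibrils, and its loss causes classical Ehlers-Danlos syndrome, in which skin is fragile and wounds heal poorly. A skin wound normally passes from an inflammatory phase, with neutrophils followed by monocytes and macrophages, to granulation tissue with new vessels and activated fibroblasts. It is then closed by keratinocytes that migrate from the edge, stratify and rebuild the lipid barrier. In bulk tissue, fewer cells of a type and less RNA per cell cannot be told apart, and this holds for all genes below. Levels are also relative to the other RNA of the biopsy, so a higher level need not be a larger amount.

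Col5a1, the targeted gene, was at 322 to 2280 CPM (median 840.5) among WT wounds and 161 to 622 CPM (median 350.2) among Col5a1CKO wounds. The ranges overlapped and the difference did not pass the test (log2 fold change -1.43 ± 0.49, adjusted p = 0.0757 by the quasi-likelihood test of edgeR, adjusted after Benjamini and Hochberg over all genes, as for every adjusted p given here). CPM are each wound's counts scaled to its library size after TMM normalization, and every log2 fold change is Col5a1CKO over WT with its standard error. In the 4 WT and 5 Col5a1CKO wounds of one set of libraries, described next, the ranges were apart, with WT at 840.5 to 2280 CPM and Col5a1CKO at 161 to 622 CPM. In the other set, Col5a1 was 322 to 349 CPM in 3 WT and 225 and 350 CPM in 2 Col5a1CKO wounds, so Col5a1 RNA did not part the genotypes there. A count over the whole transcript also includes RNA that lacks a deleted exon.

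The libraries form 2 sets by the median log2 level of the 10% most GC-rich genes less that of the 10% most GC-poor. WT a to d and Col5a1CKO a to e are the lower set, and WT e to g with Col5a1CKO f and g the upper set. Among the WT wounds alone, 4517 of 14161 genes differed between the sets. Within the lower set the GC measure also differed by genotype, with -2.34 to -1.72 for WT against -1.50 to -1.20 for Col5a1CKO. RNA from Y chromosome genes was present in WT a, b, e, f and g and in Col5a1CKO a to d, and Xist RNA in the others, so in the upper set sex and genotype cannot be told apart. The study gives other numbers of males and females for these groups, so the sex of a wound rests here on its RNA alone. The wounds held 15043838 to 35535049 counts each in the rows kept, 1 per gene. The first principal component, with 40.9% of the variance, ran from 37.9 to 132 in WT wounds and from -165 to -103 in 5 Col5a1CKO wounds. Col5a1CKO d and g stood apart from their group at 21.2 and 38.1, with epidermal genes near WT levels. Because these wounds were picked out by their RNA, values without them are descriptions and no test, above all for epidermal genes. Lists in which leaving them out moved the number of calls in a direction by over 2 are given below with and without them.

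Of 14368 genes tested, 800 rose (5.57%) and 389 fell (2.71%) in Col5a1CKO wounds at an adjusted p under 0.05 and a change of at least 2-fold. The median log2 fold change over all genes tested was -0.03. The labels name separate wounds and no animal, and the study states that each n counts separate biological replicates. The p-values measure the spread between these samples. In 339 genes (2.36%) every Col5a1CKO wound was above every WT wound, and in 224 (1.56%) every one was below. Without Col5a1CKO d and g, 1084 genes rose (7.4%) and 1538 fell (10.5%). The lower set alone gave 532 (3.68%) and 423 (2.92%), and the upper set alone 1350 (8.82%) and 63 (0.411%). Of 144 called genes named here, 90 had an adjusted p under 0.05 in the lower set and 64 in the upper set, and none changed sign in either. All 144 were called with both sets together, and for the genes described first the same sign in both sets was a condition of their choice. With the set as a covariate 9.28% and 3.9% of genes were called higher and lower, and with a GC offset 5.83% and 4.32%. The list counts below are from fits without this covariate. The interaction of genotype with set called 0.0879% and 0.00628%. Wound d was past every WT wound in 59.5% of the 800 genes that rose and in 45.5% of the 389 that fell, and wound g in 68.0% and 56.8%. Gene lists, some of which share members, are described below by how many members were called, to be read beside the shares of all genes given here. Where only 1 direction is named edgeR called no member in the other with all wounds. By its list means, wound d was within the WT range in 7 of 9 epidermal, 6 of 8 leukocyte and 4 of 14 mediator lists, and wound g in 9, 3 and 5.

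**Figure D1:**
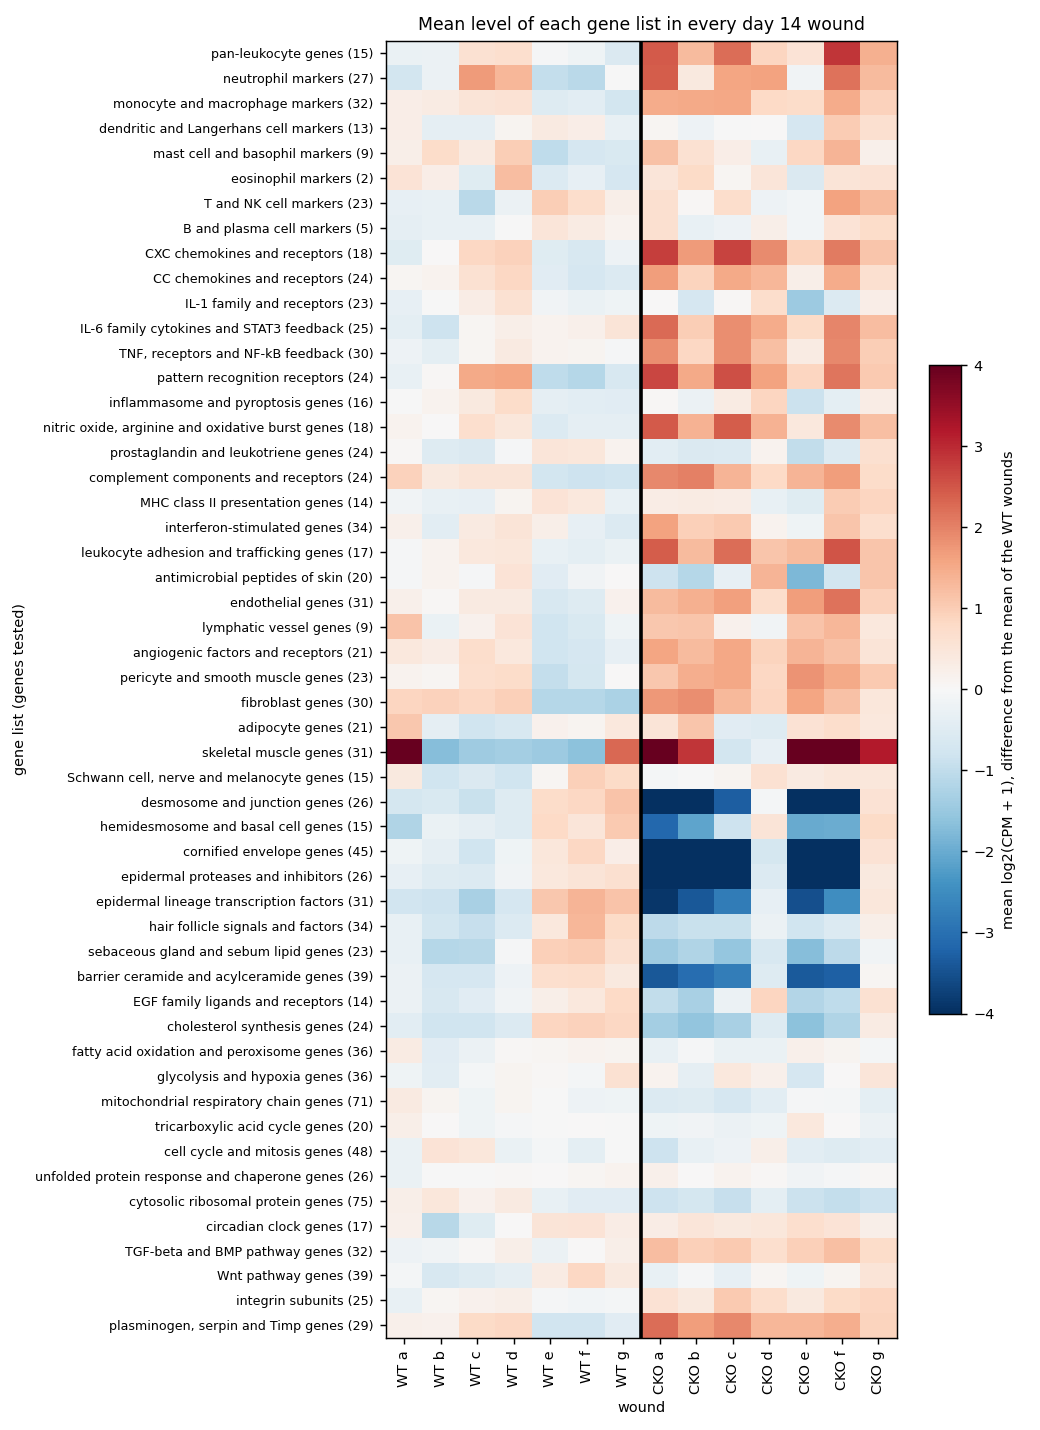
Rows are 52 gene lists with the number of genes tested, columns are the 14 wounds, and colour is the mean log2(CPM + 1) of a list less its mean over the WT wounds, with values beyond 4 in either direction drawn at the end of the scale. The desmosome, cornified envelope and epidermal protease lists are blue in Col5a1CKO a, b, c, e and f and near WT in d and g, and skeletal muscle genes vary widely within both genotypes.

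The genes described first rose with the smallest adjusted p, with no overlap between the groups and the same sign in both library sets. Hp, which encodes the haemoglobin-binding acute-phase protein haptoglobin, was at 2.81 to 37.97 CPM (median 13.5) among WT wounds and 110.4 to 1326 CPM (median 708) among Col5a1CKO wounds (log2 fold change 5.35 ± 0.73, adjusted p = 0.0028). Sod3, the extracellular superoxide dismutase, was at 10.6 to 26.1 CPM (median 13.4) among WT wounds and 44.6 to 390.4 CPM (median 114) among Col5a1CKO wounds (log2 fold change 3.20 ± 0.42, adjusted p = 0.0022). Both were higher in each Col5a1CKO wound than in any WT wound. Csf2rb2, a receptor subunit for interleukin 3, was at 9.92 to 22.3 CPM (median 15.7) among WT wounds and 43.7 to 136 CPM (median 67.6) among Col5a1CKO wounds (log2 fold change 2.45 ± 0.31, adjusted p = 0.00217). Slc39a14, a zinc and iron importer, was at 13.6 to 30.04 CPM (median 19.5) among WT wounds and 52.8 to 246 CPM (median 117) among Col5a1CKO wounds (log2 fold change 2.55 ± 0.33, adjusted p = 0.00217). In neither gene did the groups overlap. Lrp1, a large endocytic receptor that clears proteases and their inhibitors, rose by 1.70 on the log2 scale, Ripk3, the kinase of necroptosis, by 1.72, Inhbb, an activin subunit, by 1.61 and St3gal1, a sialyltransferase, by 2.05, and Tnfrsf1b, a TNF receptor, was also among them. For these genes the adjusted p was 0.00217 to 0.00264. Car4, a membrane carbonic anhydrase of capillaries, had 2 counts over all 7 WT wounds and 2171 over the 7 Col5a1CKO wounds, a depth-corrected ratio of 870 with an exact 95% interval of 240.0 to 7190, which covers counting error only.

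The next genes fell and were chosen by the same rule. Dbi, the acyl-CoA binding protein, was at 253 to 536 CPM (median 459) among WT wounds and 85.96 to 179.5 CPM (median 103) among Col5a1CKO wounds (log2 fold change -1.78 ± 0.23, adjusted p = 0.00217). Asah2, the neutral ceramidase, was at 96.3 to 221 CPM (median 159.8) among WT wounds and 16.95 to 72.03 CPM (median 22.5) among Col5a1CKO wounds (log2 fold change -2.42 ± 0.34, adjusted p = 0.00314). Each Col5a1CKO wound, d and g included, was below every WT wound for both. Abcd3, a peroxisomal fatty acid transporter, was at 181 to 245 CPM (median 203) among WT wounds and 44.9 to 141 CPM (median 68.5) among Col5a1CKO wounds (log2 fold change -1.45 ± 0.23, adjusted p = 0.00421). Npl, which degrades sialic acid, was at 120.0 to 353 CPM (median 229) among WT wounds and 18.3 to 74.98 CPM (median 37.03) among Col5a1CKO wounds (log2 fold change -2.35 ± 0.38, adjusted p = 0.00473). The WT and Col5a1CKO ranges were again apart. Smpdl3a, a phosphodiesterase of the acid sphingomyelinase family, fell by 1.83 on the log2 scale, Rdh13, a mitochondrial retinol dehydrogenase, by 1.71, Gstk1, a peroxisomal glutathione transferase, by 1.53, Insig2, a sterol-sensing regulator, by 1.06, Eif3i, a translation initiation factor subunit, by 1.19 and 6330409N04Rik by 1.58, with adjusted p of 0.00314 to 0.004.

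Some genes shared by leukocytes and some markers of neutrophils and macrophages rose in Col5a1CKO wounds. Of 15 pan-leukocyte genes, 9 rose, and the median log2 fold change was 1.64 (1.42 in the lower and 2.62 in the upper set). Hcls1, a cytoskeletal adaptor of blood cells, was at 9.78 to 48.4 CPM (median 23.4) among WT wounds and 50.2 to 248 CPM (median 99.2) among Col5a1CKO wounds (log2 fold change 2.65 ± 0.44, adjusted p = 0.00489), and no wounds overlapped. Laptm5, a lysosomal protein of blood cells, was at 50.8 to 110.1 CPM (median 71.8) among WT wounds and 75.5 to 525 CPM (median 203) among Col5a1CKO wounds (log2 fold change 1.61 ± 0.36, adjusted p = 0.0138), and the ranges overlapped. Ptprc (2.14), Lcp1 (2.15), Vav1 (1.85) and Rac2 (2.65) also rose on the log2 scale. The summed level of the 15 genes spanned 458 to 1297 CPM across WT wounds and 1054 to 4855 CPM across Col5a1CKO wounds.

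Among 27 neutrophil markers tested, 7 rose, with a median log2 fold change of 2.21 (1.76 in the lower and 4.45 in the upper set), and without Col5a1CKO d and g 9 of 28 were called higher and 5 lower. Csf3r, the receptor for the growth factor of neutrophils, was at 4.92 to 39.5 CPM (median 18.03) among WT wounds and 48.1 to 483 CPM (median 106) among Col5a1CKO wounds (log2 fold change 3.50 ± 0.66, adjusted p = 0.00693), with no overlap. Cxcr2, the receptor that guides neutrophils to CXC chemokines, was at 16.2 to 54.02 CPM (median 21.7) among WT wounds and 26.00 to 267 CPM (median 62.3) among Col5a1CKO wounds (log2 fold change 2.21 ± 0.50, adjusted p = 0.0147), with overlap. Ltf, which encodes lactoferrin of secondary granules, had 9 counts over the 7 WT wounds and 3929 over the Col5a1CKO wounds, a ratio of 350 with a 95% interval of 184 to 766. Ngp, a granule protein, was at 0 to 3.82 CPM (median 0.344) among WT wounds and 0.378 to 133 CPM (median 21.1) among Col5a1CKO wounds (log2 fold change 5.84 ± 1.33, adjusted p = 0.0149), and the highest WT wound was above the lowest Col5a1CKO wound. The alarmin genes S100a8 and S100a9, which keratinocytes express as well, did not pass, at log2 fold changes of 0.93 (adjusted p = 0.345) and 1.12 (adjusted p = 0.249). The summed level of the list spanned 10320 to 29610 CPM across WT wounds and 2400 to 25640 CPM across Col5a1CKO wounds, with medians of 17720 and 11590 CPM, so the summed level was lower while the median fold change was above 0. The list also holds Asprv1 and Slpi, which epidermis expresses.

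Of 32 monocyte and macrophage markers, 9 rose, with a median of 1.18 (0.81 in the lower and 1.80 in the upper set). Csf1r, the receptor on which macrophages depend, was at 67.9 to 119 CPM (median 75.6) among WT wounds and 141 to 418 CPM (median 289.7) among Col5a1CKO wounds (log2 fold change 1.60 ± 0.26, adjusted p = 0.00473). Ccr2, which marks inflammatory monocytes, was at 16.8 to 110.0 CPM (median 45.2) among WT wounds and 94.4 to 322 CPM (median 157) among Col5a1CKO wounds (log2 fold change 1.90 ± 0.41, adjusted p = 0.0112). The 7 Col5a1CKO wounds were above the 7 WT wounds for Csf1r but not for Ccr2. Itgam, the alpha chain of Mac-1, rose by 2.55 and Cd68, a lysosomal marker of macrophages, by 1.18 on the log2 scale. Among 13 dendritic and Langerhans cell markers 1 rose, Irf8 (1.36), and Flt3 did not pass (1.45, adjusted p = 0.259). Cd207, the langerin of epidermal Langerhans cells, was 12.9 to 34.8 CPM in WT wounds, 5.76 and 17.5 CPM in Col5a1CKO d and g and 0 to 0.309 CPM in the other 5, and its log2 fold change was -2.69 (adjusted p = 0.158) with all wounds.

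Of 23 T and NK cell markers, 4 rose, and the median was 0.41. Cd3e, a chain of the T cell receptor complex, was at 0 to 19.99 CPM (median 5.03) among WT wounds and 0.14 to 18.5 CPM (median 1.54) among Col5a1CKO wounds, and neither it (-0.71, adjusted p = 0.733) nor Cd3g (-0.62, adjusted p = 0.674) passed. Cd4, which macrophages can also carry, was at 0.487 to 5.50 CPM (median 4.25) among WT wounds and 5.57 to 22.9 CPM (median 10.7) among Col5a1CKO wounds (log2 fold change 1.62 ± 0.45, adjusted p = 0.0323), without overlap. Ctla4, the inhibitory receptor of activated and regulatory T cells, was at 0 to 1.22 CPM (median 0.35) among WT wounds and 1.46 to 19.8 CPM (median 6.53) among Col5a1CKO wounds (log2 fold change 4.10 ± 0.88, adjusted p = 0.0111), and the ranges were apart. Il17a, a cytokine of T cells that drives neutrophil responses in skin, was at 0 to 0.932 CPM (median 0) among WT wounds and 0.233 to 39.1 CPM (median 2.49) among Col5a1CKO wounds (log2 fold change 4.88 ± 1.33, adjusted p = 0.0312), with overlap, and Thy1, shared with fibroblasts, rose by 1.14. Of 9 mast cell or basophil, 2 eosinophil and 5 B or plasma cell genes tested, edgeR called 0, although 2, 0 and 1 had an unadjusted p under 0.05 and DESeq2 called 1 mast cell or basophil gene. Kit, the receptor of mast cells for stem cell factor, did not pass (1.32, adjusted p = 0.0591).

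Some soluble signals of inflammation and their receptors rose. A list of 25 genes held the interleukin 6 family, whose cytokines act through gp130 and STAT3, with STAT3 feedback genes, interleukin 10, the interleukin 10 and 4 receptors, and the colony-stimulating factors with their receptors. In it 10 rose, with a median of 1.25 (1.67 in the lower and 0.89 in the upper set), and 5 of these were genes of interleukin 10, the colony-stimulating factors or their receptors. Il6 itself was at 0 to 0.991 CPM (median 0.067) among WT wounds and 0.971 to 139 CPM (median 23.7) among Col5a1CKO wounds (log2 fold change 7.70 ± 1.21, adjusted p = 0.00421), and Col5a1CKO g, at 0.971 CPM, was below the highest WT wound. Socs3, the feedback inhibitor that STAT3 induces, was at 4.89 to 60.9 CPM (median 26.9) among WT wounds and 79.4 to 453 CPM (median 169) among Col5a1CKO wounds (log2 fold change 3.01 ± 0.54, adjusted p = 0.00626), with no overlap. Csf2rb, the common beta receptor chain for GM-CSF, was at 11.7 to 63.3 CPM (median 23.2) among WT wounds and 67.7 to 362 CPM (median 119.5) among Col5a1CKO wounds (log2 fold change 2.71 ± 0.48, adjusted p = 0.00617), again with no overlap. Osm, a cytokine of the family made by myeloid cells, did not pass (1.94, adjusted p = 0.221).

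Of 18 CXC chemokine and receptor genes 4 rose, and of 24 CC genes 4 rose, with medians of 1.55 and 1.38, and without Col5a1CKO d and g 9 of 19 CXC genes were called higher. Cxcl5, which attracts neutrophils, was at 0.126 to 24.9 CPM (median 3.32) among WT wounds and 10.8 to 832 CPM (median 251) among Col5a1CKO wounds (log2 fold change 6.03 ± 1.16, adjusted p = 0.00802). The lowest Col5a1CKO value was in wound g, and the next lowest was 165 CPM. Cxcl1 was at 0.134 to 39.7 CPM (median 2.26) among WT wounds and 14.6 to 308 CPM (median 89.4) among Col5a1CKO wounds (log2 fold change 4.05 ± 1.13, adjusted p = 0.035) and Ppbp, the platelet chemokine precursor, at 0.128 to 6.05 CPM (median 0.737) among WT wounds and 7.02 to 196 CPM (median 8.57) among Col5a1CKO wounds (log2 fold change 4.88 ± 1.04, adjusted p = 0.0113). Only Ppbp of these chemokines parted the groups. Cxcl2 ranged from 0.958 to 1073 CPM within WT and did not pass (1.61, adjusted p = 0.465). The monocyte chemokines Ccl2 (2.38) and Ccl7 (2.31) rose on the log2 scale.

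The TNF and NF-kB list, which holds TNF, receptors and the feedback genes that NF-kB induces, had 11 of 30 genes higher, with a median of 1.25 (1.27 in the lower and 1.49 in the upper set). Tnf itself was not called (2.02, adjusted p = 0.195). Tnfaip3, the A20 feedback inhibitor, was at 7.77 to 25.1 CPM (median 16.2) among WT wounds and 21.6 to 369 CPM (median 131) among Col5a1CKO wounds (log2 fold change 3.36 ± 0.59, adjusted p = 0.00579), and only Col5a1CKO e, at 21.6 CPM, was within the WT range. Tnfaip2 (1.73) and the adaptor Traf1 (2.77) rose on the log2 scale, with no overlap between the groups. In the interleukin 1 family 4 of 23 genes rose and 1 fell, and without Col5a1CKO d and g 4 were called higher and 6 lower. Il1b ranged from 7.38 to 2138 CPM within WT and did not pass (1.55, adjusted p = 0.427), nor did Il1a (2.10, adjusted p = 0.0905). Il1r1, the signalling receptor, was at 19.4 to 46.6 CPM (median 30.8) among WT wounds and 50.9 to 295 CPM (median 166) among Col5a1CKO wounds (log2 fold change 2.35 ± 0.35, adjusted p = 0.00369), with no overlap, Il1rl1, the receptor for interleukin 33, rose by 2.43 and Il18rap, a chain of the interleukin 18 receptor, by 3.79. Il18, the ligand, which keratinocytes store, was the member that fell, and was at 96.2 to 361 CPM (median 189) among WT wounds and 10.9 to 105 CPM (median 14.8) among Col5a1CKO wounds (log2 fold change -2.45 ± 0.56, adjusted p = 0.015), with Col5a1CKO d just inside the WT range.

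Many of these genes are textbook targets of NF-kB, and the TNF and NF-kB list holds feedback genes chosen as such. A higher share with a kappaB motif among them follows in part from that choice, and no cause was tested. The 250 bases before the start site, taken from RefSeq on GRCm38.p6, were searched on both strands for the consensus kappaB motif. Of the 74 genes that rose in the lists of cytokines, chemokines, sensors, effectors and adhesion molecules, 49 had a promoter in the table, and 9 of these (18.4%) held the motif, beside 4.67% of 10147 promoters of the genes tested and 3.75% of all 27025. For the STAT motif TTCNNNGAA the shares were 18.4%, 6.15% and 7.18%, and for the C/EBP motif TTNNGNAA they were 42.9%, 29.0% and 36.9%. The reference build differs from the mm9 build of the counts, so these positions are not those of the count table. The windows that follow, 30 bases each and 5′ to 3′ on the strand of the gene, are from 5 of the 9 promoters and show with capitals the match nearest the start site. The 5 are examples, and the RNA of all 9 genes rose in Col5a1CKO wounds because only genes that rose were searched for windows. Genes of the TNF and NF-kB list are also among the promoters not shown. A match is a run of letters and not a site of binding.
Il6: tatcaaatgtGGGATTTTCCcatgagtctc
Tnfaip3: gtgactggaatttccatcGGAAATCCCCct
Sod2: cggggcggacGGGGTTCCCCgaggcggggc
Tlr2: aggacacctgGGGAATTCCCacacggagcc
Cxcl1: ctgtactccgGGAATTTCCCtggcccggag
These windows lie at chr5:30013060-30013089 (plus strand), chr10:19015411-19015440 (minus), chr17:13007746-13007775 (plus), chr3:83841761-83841790 (minus) and chr5:90891165-90891194 (plus).

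Innate sensing genes changed unevenly. Of 24 pattern recognition receptors 4 rose, among them Tlr2, which senses bacterial lipoproteins and was at 9.42 to 53.6 CPM (median 12.3) among WT wounds and 41.7 to 243 CPM (median 109.8) among Col5a1CKO wounds (log2 fold change 2.36 ± 0.54, adjusted p = 0.0147), with overlap. Tlr1 (1.78), Tlr8 (1.75) and the myeloid lectin Clec5a (2.51) rose on the log2 scale, and Tlr4, the receptor for lipopolysaccharide, did not pass (1.31, adjusted p = 0.187). The inflammasome list split, with 3 of 16 genes higher and 2 lower. Naip2 (2.33), Mefv (2.76) and the pore-forming Gsdmd (1.31) rose on the log2 scale. Pycard, the ASC adaptor that joins sensors to caspase 1, was at 176 to 275 CPM (median 213) among WT wounds and 9.32 to 109.6 CPM (median 18.1) among Col5a1CKO wounds (log2 fold change -2.50 ± 0.52, adjusted p = 0.0103). Nlrp10, a member of the sensor family expressed in epidermis, was at 57.4 to 177 CPM (median 102) among WT wounds and 0.752 to 39.1 CPM (median 2.01) among Col5a1CKO wounds (log2 fold change -3.50 ± 0.90, adjusted p = 0.0248). Both were below every WT wound in all 7 Col5a1CKO wounds, and in both Col5a1CKO d and g had the highest values of their group. Nlrp3 did not pass (2.94, adjusted p = 0.0877).

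Some effector genes of myeloid cells and the acute phase rose. Of 18 nitric oxide, arginine and oxidative burst genes 10 rose, with a median of 1.53 (1.33 in the lower and 1.93 in the upper set). Ncf1, a cytosolic subunit of the phagocyte NADPH oxidase, was at 11.6 to 40.9 CPM (median 20.3) among WT wounds and 44.6 to 178 CPM (median 78.1) among Col5a1CKO wounds (log2 fold change 1.91 ± 0.36, adjusted p = 0.00686). Sod2, the mitochondrial superoxide dismutase, was at 62.6 to 85.3 CPM (median 70.5) among WT wounds and 108 to 394 CPM (median 219) among Col5a1CKO wounds (log2 fold change 1.67 ± 0.30, adjusted p = 0.00617). Both were higher in each Col5a1CKO wound than in any WT wound, as was Nos2, the inducible nitric oxide synthase (log2 fold change 5.91), and Ncf4 rose by 2.02 with overlap. Saa3, an acute-phase apolipoprotein made by many cell types in inflamed tissue, was at 2.66 to 84.98 CPM (median 20.6) among WT wounds and 274 to 4735 CPM (median 2357) among Col5a1CKO wounds (log2 fold change 6.53 ± 0.91, adjusted p = 0.00314), and the lowest Col5a1CKO wound, g at 274 CPM, was above the highest WT wound. Of 20 antimicrobial peptide genes of skin, 3 rose, Saa3, Lcn2 (4.02) and Pglyrp1 (5.18). Without Col5a1CKO d and g, 3 were called higher and 6 lower, and the median of the list went from 0.29 to -1.27. All 24 complement genes tested had log2 fold changes above 0, and 7 were called, with a median of 1.14 (0.77 in the lower and 2.28 in the upper set). C3, the central component, was at 9.02 to 146 CPM (median 17.9) among WT wounds and 141 to 665 CPM (median 385) among Col5a1CKO wounds (log2 fold change 3.15 ± 0.62, adjusted p = 0.00837), with overlap through Col5a1CKO g and WT a, and Cfp, properdin, at 20.2 to 46.8 CPM (median 28.4) among WT wounds and 53.2 to 158 CPM (median 100.5) among Col5a1CKO wounds (log2 fold change 1.53 ± 0.29, adjusted p = 0.00768), with none. Cfb, factor B of the alternative pathway, rose by 2.38.

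Of 14 MHC class II presentation genes 1 rose, and the median was 0.06. Of 34 interferon-stimulated genes 3 rose, the antiviral synthetases Oas2 (1.72), Oas3 (2.12) and Oasl2 (1.36), the median was 0.81, and 6 were called without Col5a1CKO d and g. In the prostaglandin and leukotriene list 1 of 24 genes rose and 1 fell, against 2 called higher and 8 lower of 25 without Col5a1CKO d and g. Alox5ap, which activates 5-lipoxygenase, rose by 2.09, Ptgs1, the constitutive cyclooxygenase, fell by 1.89, and Ptgs2, the inducible one, did not pass (2.34, adjusted p = 0.223).

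**Figure D2:**
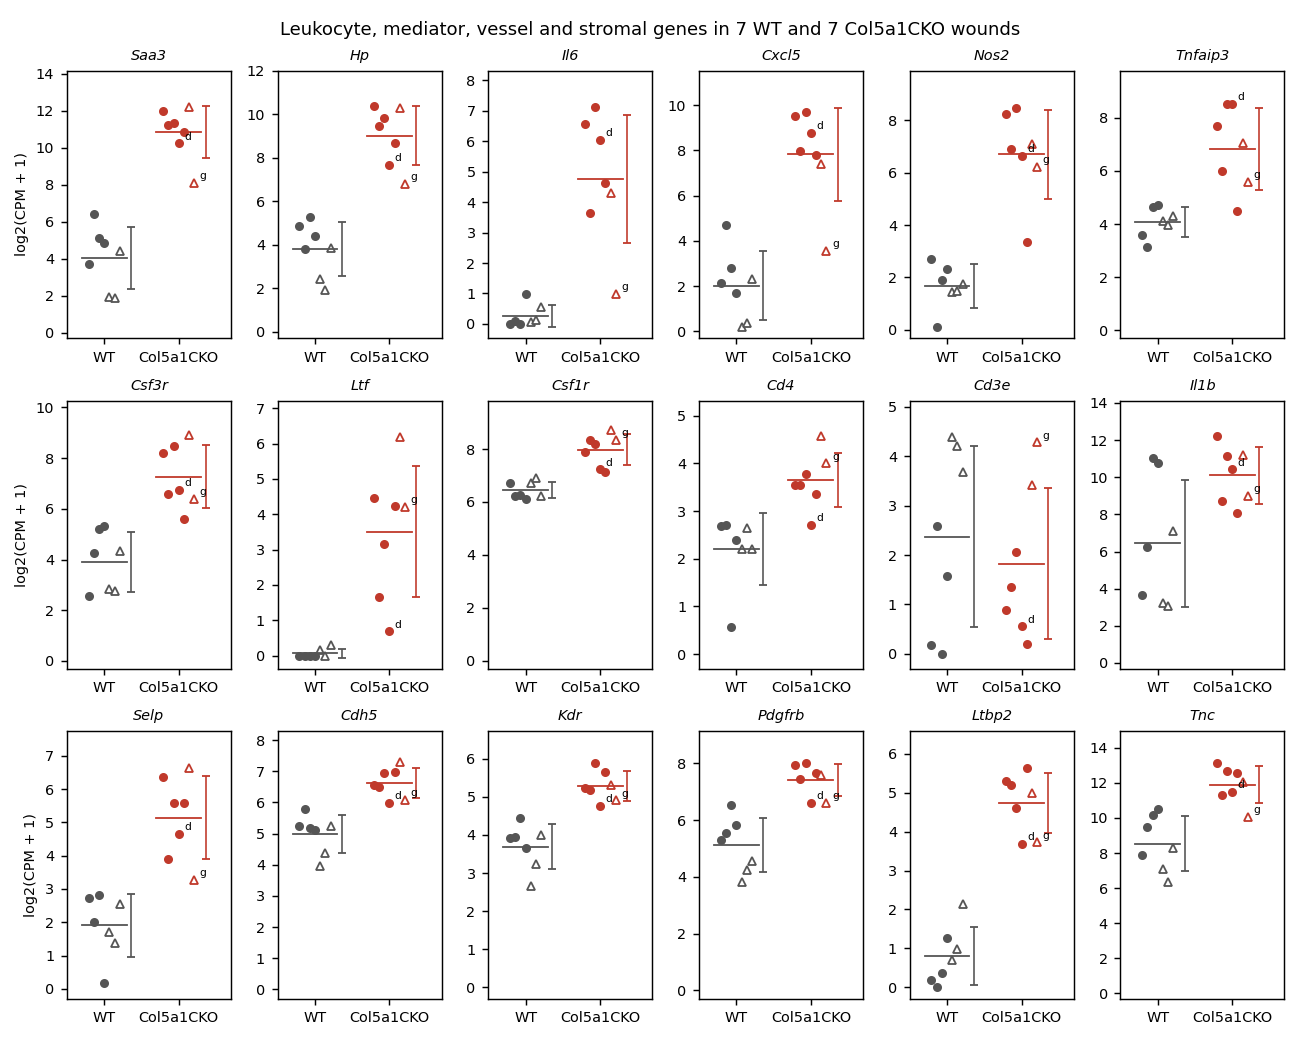
Each panel gives log2(CPM + 1) of a gene in 7 WT (grey) and 7 Col5a1CKO (red) wounds, with circles for the lower and open triangles for the upper library set, the horizontal line at the group mean, the bar at its SD and the letters d and g at those Col5a1CKO wounds. The groups do not overlap for Saa3, Hp, Nos2, Csf3r, Ltf, Csf1r, Cd4, Selp, Cdh5, Kdr, Pdgfrb or Ltbp2, whereas Cd3e and Il1b overlap widely.

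Of 31 endothelial genes tested, 13 rose in Col5a1CKO wounds. Car4, one of the genes described first, is among the 13, and this list too was drawn up with earlier results known. All 31 had log2 fold changes above 0, and in 8 the groups did not overlap. Of all genes tested, 5.57% were called higher, and in 2.36% every Col5a1CKO wound was above every WT wound. The median was 1.36 (0.99 in the lower and 2.14 in the upper set), 8 were called in the lower set and 5 in the upper set, and 17 without Col5a1CKO d and g. The shares of all genes called higher in these fits were 3.68%, 8.82% and 7.4%. Cdh5, the cadherin of endothelial junctions, was at 14.7 to 54.4 CPM (median 35.4) among WT wounds and 62.4 to 156 CPM (median 94.1) among Col5a1CKO wounds (log2 fold change 1.63 ± 0.29, adjusted p = 0.00637). Kdr, the main receptor for VEGF, was at 5.34 to 20.8 CPM (median 14.3) among WT wounds and 26.1 to 58.4 CPM (median 36.9) among Col5a1CKO wounds (log2 fold change 1.62 ± 0.29, adjusted p = 0.00617). Eng, a co-receptor for TGF-beta on endothelium, was at 22.1 to 37.5 CPM (median 29.1) among WT wounds and 48.4 to 192 CPM (median 70.9) among Col5a1CKO wounds (log2 fold change 1.55 ± 0.28, adjusted p = 0.00664). The ranges were apart for these genes and overlapped for Pecam1 (1.37, adjusted p = 0.0283). Vegfa, the ligand of Kdr, did not pass (0.36, adjusted p = 0.566), and of 21 angiogenic factors and receptors 3 rose, Nrp2 (1.87) and Thbs1 (2.98) among them. The summed level of the endothelial genes spanned 222 to 630 CPM across WT wounds and 707 to 2002 CPM across Col5a1CKO wounds.

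Of 17 adhesion and trafficking genes that leukocytes use to leave vessels, 11 rose, with a median of 1.85 (1.45 in the lower and 2.64 in the upper set). The lower set alone called 4 of 17 and the upper set alone 7 of 18, beside 3.68% and 8.82% of all genes. Selp, the selectin stored in endothelium and platelets, was at 0.117 to 6.05 CPM (median 3.02) among WT wounds and 8.65 to 99.2 CPM (median 46.8) among Col5a1CKO wounds (log2 fold change 3.77 ± 0.71, adjusted p = 0.00693). Sele, the selectin that cytokines induce on endothelium, was at 0 to 1.15 CPM (median 0.117) among WT wounds and 1.64 to 15.7 CPM (median 13.9) among Col5a1CKO wounds (log2 fold change 4.78 ± 1.04, adjusted p = 0.0122). Neither gene had a Col5a1CKO wound inside the WT range. Of 9 lymphatic genes 1 rose, Pdpn (1.61), which fibroblasts share.

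In the stroma, some mural and fibroblast genes rose. Of 23 pericyte and smooth muscle genes 7 rose, with a median of 1.25 (0.91 in the lower and 2.22 in the upper set). Pdgfrb, the PDGF receptor of mural cells and fibroblasts, was at 13.1 to 91.7 CPM (median 38.2) among WT wounds and 96.6 to 258 CPM (median 191) among Col5a1CKO wounds (log2 fold change 2.15 ± 0.41, adjusted p = 0.00775), with no overlap. Acta2, smooth muscle actin, which myofibroblasts also express, rose by 1.80, Myh11 by 2.23, Mcam by 1.60 and Notch4 by 1.95 on the log2 scale, while Rgs5, a pericyte marker, did not pass (0.55, adjusted p = 0.61). Of 30 fibroblast genes 9 rose, with a median of 0.81 (0.71 in the lower and 2.29 in the upper set). Tnc, the wound matrix protein tenascin C, was among them. Pdgfra, the PDGF receptor of fibroblasts, was at 13.8 to 106 CPM (median 77.1) among WT wounds and 88.6 to 675 CPM (median 282) among Col5a1CKO wounds (log2 fold change 2.36 ± 0.58, adjusted p = 0.0206). En1, the transcription factor of scar-forming dorsal fibroblasts, was at 1.95 to 5.50 CPM (median 3.71) among WT wounds and 7.32 to 25.9 CPM (median 18.2) among Col5a1CKO wounds (log2 fold change 2.30 ± 0.33, adjusted p = 0.00314). Only En1 of these had no overlap. Twist2, a transcription factor of dermal mesenchyme, rose by 2.00. Dcn, the proteoglycan decorin, did not pass (0.53, adjusted p = 0.683). Fgf7, the fibroblast factor that acts on keratinocytes, was at 0.463 to 25.3 CPM (median 3.03) among WT wounds and 14.9 to 243 CPM (median 84.7) among Col5a1CKO wounds (log2 fold change 3.74 ± 0.86, adjusted p = 0.0156), with overlap.

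The TGF-beta and BMP list had 13 of 32 genes higher and 1 lower, with a median of 0.77 (1.09 in the lower and 0.92 in the upper set). Ltbp2, a microfibril protein related to the latent TGF-beta binding proteins, was at 0 to 3.41 CPM (median 0.631) among WT wounds and 11.9 to 49.2 CPM (median 30.8) among Col5a1CKO wounds (log2 fold change 4.85 ± 0.80, adjusted p = 0.00489). Tgfb2 was at 4.69 to 26.8 CPM (median 11.2) among WT wounds and 31.9 to 90.1 CPM (median 52.8) among Col5a1CKO wounds (log2 fold change 2.04 ± 0.38, adjusted p = 0.00675). For both ligand and binding protein the WT and Col5a1CKO ranges were apart. Tgfb1 (1.54) and the procollagen C-proteinase Bmp1 (1.57) rose on the log2 scale, and the receptor Bmpr1a fell by 1.04. Of 39 Wnt pathway genes 5 rose, with a median of 0.02, and without Col5a1CKO d and g 5 were called higher and 7 lower. The genes that rose included the ligand Wnt5a (1.46) and the secreted inhibitors Sfrp1 (2.28) and Frzb. Frzb had 25 counts over the WT wounds and 322 over the Col5a1CKO wounds, a ratio of 10.3 with a 95% interval of 6.86 to 16.2. Of 25 integrin subunits 7 rose, and without Col5a1CKO d and g 7 were called higher and 3 lower. Itga5, the alpha chain of the fibronectin receptor, was at 43.4 to 129 CPM (median 67.7) among WT wounds and 138 to 443 CPM (median 257) among Col5a1CKO wounds (log2 fold change 1.90 ± 0.30, adjusted p = 0.00421), and Itga9, which binds tenascin C, at 6.61 to 22.5 CPM (median 9.25) among WT wounds and 22.7 to 59.8 CPM (median 39.8) among Col5a1CKO wounds (log2 fold change 1.70 ± 0.34, adjusted p = 0.00837), both without overlap. Itgb3 rose by 1.52, and its partner Itgav did not pass (0.81, adjusted p = 0.159).

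All 29 plasminogen, serpin and Timp genes tested had log2 fold changes above 0, and 10 were called, with a median of 1.21 (1.18 in the lower and 2.44 in the upper set), against 13 without Col5a1CKO d and g. F10, coagulation factor X, was at 0.134 to 10.1 CPM (median 2.90) among WT wounds and 15.4 to 124 CPM (median 52.6) among Col5a1CKO wounds (log2 fold change 3.94 ± 0.72, adjusted p = 0.00664), with no overlap. Serpina3n, an inhibitor of granule serine proteases, was at 0.715 to 4.47 CPM (median 2.51) among WT wounds and 4.40 to 51.8 CPM (median 21.97) among Col5a1CKO wounds (log2 fold change 3.32 ± 0.59, adjusted p = 0.00617), and the highest WT wound exceeded the lowest Col5a1CKO wound only narrowly. Timp1, an inhibitor of metalloproteinases, rose by 1.78 and Plaur, the urokinase receptor, by 2.12.

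Skeletal muscle RNA varied between wounds of both genotypes. Acta1, the actin of skeletal muscle, was 1629 CPM in WT a, 384 CPM in WT g and 2.26 to 4.67 CPM in the other WT wounds, and 12.8 to 2533 CPM in Col5a1CKO wounds. All 31 muscle genes tested had log2 fold changes above 0 with a median of 1.90, but edgeR called 0, with 2 at an unadjusted p under 0.05 and 1 called by DESeq2, and the median was -1.57 in the separate vehicle-treated wounds described last. Ckm (1.90, adjusted p = 0.476) and Adipoq, an adipocyte hormone (1.87, adjusted p = 0.328), did not pass, and of 21 adipocyte genes edgeR called 0, with 2 at an unadjusted p under 0.05 and 2 called by DESeq2.

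In the cornified envelope, desmosome and epidermal protease lists, the mean level was below every WT wound in 5 Col5a1CKO wounds and nearer to WT in d and g. These wounds were noticed for such genes, so the calls without them follow in part from that choice and are given with no p. Of 45 cornified envelope genes, which build the protein shell of the outermost cells, 39 had a negative log2 fold change and 2 were called lower with all 7 wounds, against 42 of 46 without d and g, where 10.5% of all genes were called lower. The median was -2.42 (-3.20 in the lower and -1.40 in the upper set). Ivl, involucrin, was 273 to 700 CPM in WT wounds, 92.4 and 131 CPM in Col5a1CKO d and g and 0.484 to 5.73 CPM in the other 5 (log2 fold change -3.78 ± 1.14, adjusted p = 0.0474). The summed level of the list spanned 25310 to 49210 CPM across WT wounds and 270 to 33280 CPM across Col5a1CKO wounds. Lor, loricrin, did not pass with all wounds (-2.97, adjusted p = 0.294), and its log2 fold change was -10.06 without d and g. For the desmosome and junction list 1 of 26 genes was lower with all wounds, the connexin Gjb5 (-2.76), and 22 without d and g. Dsg1a, a desmosomal cadherin, was at 1318 to 2128 CPM (median 1408) among WT wounds and 1.55 to 937 CPM (median 5.78) among Col5a1CKO wounds. No wounds overlapped, yet its adjusted p was 0.198.

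Of 31 epidermal transcription factor genes 30 were negative, 1 was called lower with all wounds and 22 without d and g. Rora, a nuclear receptor, was the one called and was at 36.2 to 87.3 CPM (median 50.8) among WT wounds and 5.74 to 35.8 CPM (median 7.97) among Col5a1CKO wounds (log2 fold change -2.05 ± 0.45, adjusted p = 0.012), below WT in all 7 wounds. Trp63, the master factor of stratified epithelia, had a log2 fold change of -1.49 with all wounds (adjusted p = 0.326) and -4.41 without d and g, and Grhl3, a factor of barrier repair, -1.73 (adjusted p = 0.346) and -5.29. Of 26 epidermal proteases and inhibitors edgeR called 0 with all wounds, with 7 at an unadjusted p under 0.05 and 8 called lower by DESeq2, and 24 were called lower without d and g. Klk5 and Klk7, kallikreins that shed the outer layer, went from -2.52 and -2.31 to -8.76 and -6.19 on the log2 scale when d and g were left out. Of 15 hemidesmosome and basal cell genes 1 rose, Dst, a linker of the cytoskeleton in basal keratinocytes and nerve (1.15, adjusted p = 0.00927), and without d and g 1 was called higher and 7 lower, with a median that went from -0.73 to -2.02. Of 34 hair follicle genes 2 fell, Krt71 and Padi3, and 2 rose, Wnt5a and Fgf7, with a median of -0.64 (0.01 in the lower and -0.98 in the upper set), and without d and g 9 were called lower and 3 higher. Krt71, a keratin of the inner root sheath, was at 5.42 to 52.2 CPM in WT a to d and 183 to 3055 CPM in WT e to g (log2 fold change -6.79), and Tchh, trichohyalin, a member of the cornified envelope list, at 37.7 to 92.2 CPM and 171 to 2264 CPM (-4.71). For both, the WT level was higher in the upper library set. The pigment gene Tyrp1 (-5.13) and Padi3, which modifies trichohyalin (-3.97), were called lower, with overlap between the groups for both. Tyrp1 was not called in either library set alone or with the set as a covariate.

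Several genes of barrier lipids and of sterol synthesis fell. Of 39 barrier ceramide and acylceramide genes 6 fell and 1 rose, with a median of -1.78 (-1.45 in the lower and -1.42 in the upper set), and 32 were called lower without d and g. Asah2 and Smpdl3a, in this list, and Dbi, in the sebum list, are among the genes that fell and were described first. The lists were drawn up with earlier results of these data known, so these counts are descriptions and no separate support. Sptlc1, a subunit of the enzyme that starts sphingolipid synthesis, was at 99.2 to 191 CPM (median 148) among WT wounds and 33.5 to 110.0 CPM (median 41.6) among Col5a1CKO wounds (log2 fold change -1.35 ± 0.31, adjusted p = 0.016), with overlap through wounds d and g. Abhd5, the lipase co-activator mutated in a human ichthyosis, fell by 1.15. Of 24 cholesterol synthesis genes 23 were negative, 7 fell, with a median of -1.20 (-0.59 in the lower and -1.18 in the upper set), and 18 were called lower without d and g. Sc4mol, the sterol C4-methyl oxidase, was at 238 to 417 CPM (median 268) among WT wounds and 33.8 to 194 CPM (median 52.2) among Col5a1CKO wounds (log2 fold change -1.82 ± 0.43, adjusted p = 0.0179). Idi1, the isopentenyl diphosphate isomerase, was at 10.6 to 25.9 CPM (median 13.2) among WT wounds and 2.01 to 8.95 CPM (median 4.78) among Col5a1CKO wounds (log2 fold change -1.59 ± 0.36, adjusted p = 0.0147). Both were lower in every Col5a1CKO wound. Ebp (-1.44) and Tm7sf2 (-2.31) were called lower on the log2 scale. In the sebum list of 23 genes, 2 fell, Far2, which makes fatty alcohols (-3.59), and Dbi, and 2 rose, among them Soat1, which esterifies cholesterol in many cells (1.37), against 12 called lower and 2 higher of 24 without d and g. Epidermal lists and these lipid lists shared the pattern of wounds d and g, and how far the amount of epidermis in the biopsy moved the lipid genes was not tested.

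**Figure D3:**
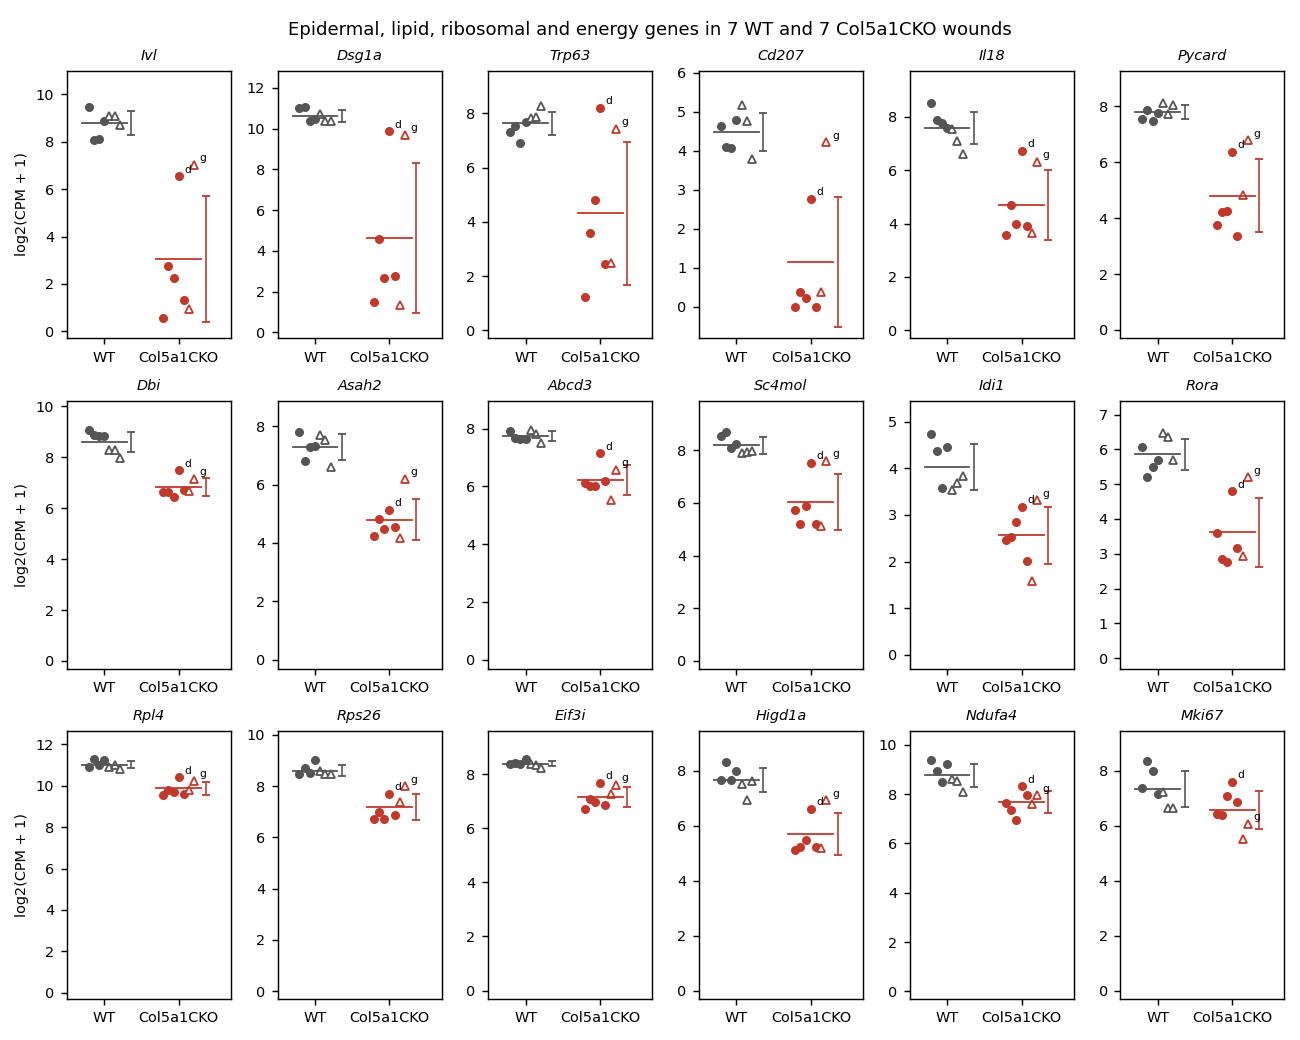
Each panel gives log2(CPM + 1) of a gene in 7 WT (grey) and 7 Col5a1CKO (red) wounds, with circles for the lower and open triangles for the upper library set, the horizontal line at the group mean, the bar at its SD and the letters d and g at those Col5a1CKO wounds. For Dbi, Asah2, Abcd3, Rpl4, Rps26 and Eif3i all 7 Col5a1CKO wounds lie below WT, and for Trp63 wounds d and g lie at WT levels.

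Many ribosomal protein genes fell, by small folds. Of 75 cytosolic ribosomal protein genes 73 were negative and 30 fell, beside 2.71% of all genes tested, with a median of -0.96. In 16 the groups did not overlap, beside 1.56% of all genes in that direction. Rpl4 was at 1823 to 2516 CPM (median 2041) among WT wounds and 756 to 1359 CPM (median 888) among Col5a1CKO wounds (log2 fold change -1.13 ± 0.22, adjusted p = 0.00802). Rps26 was at 352 to 517 CPM (median 364) among WT wounds and 105 to 254 CPM (median 125) among Col5a1CKO wounds (log2 fold change -1.34 ± 0.23, adjusted p = 0.00549). In both genes each Col5a1CKO wound, d and g included, was below each WT wound. Rpl6 (-1.23), Rps20 (-1.08) and Rpl18 (-1.02) also fell, while Rpl3 stayed under the 2-fold threshold (-0.94, adjusted p = 0.0209). The lower library set called 46 of the 75 by edgeR and the upper set 0, where 38 had an unadjusted p under 0.05, with medians of -1.22 and -0.55, and with a GC offset 32 of 74 were called, and 35 without Col5a1CKO d and g. These genes have many processed copies in the genome, and reads had to align once, so their levels are uncertain. The summed level of the list spanned 20380 to 31990 CPM across WT wounds and 10500 to 16290 CPM across Col5a1CKO wounds.

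Of 71 respiratory chain genes 67 were negative, with a median of -0.49 (-0.55 in the lower and -0.12 in the upper set), and 1 was called, Ndufa4 (-1.08, adjusted p = 0.0165). Fatty acid oxidation and peroxisome genes gave 3 lower and 1 higher of 36, and the lower ones were Abcd3, Hadh, which oxidises short-chain acyl-CoA (-1.43), and Cat, catalase. In the glycolysis and hypoxia list 4 of 36 rose and 1 fell, and without Col5a1CKO d and g 4 were called higher and 5 lower. Pfkfb3, an enzyme that drives glycolysis, was at 24.4 to 68.2 CPM (median 41.7) among WT wounds and 52.4 to 488 CPM (median 168) among Col5a1CKO wounds (log2 fold change 2.22 ± 0.43, adjusted p = 0.00759), with overlap. The lactate exporter Slc16a3 (2.14) and the collagen prolyl hydroxylase P4ha1 (1.17) rose on the log2 scale. Higd1a, a mitochondrial protein induced by hypoxia, was at 121 to 321 CPM (median 199.6) among WT wounds and 33.3 to 121 CPM (median 36.7) among Col5a1CKO wounds (log2 fold change -1.86 ± 0.34, adjusted p = 0.0067), and Col5a1CKO g came within 1 CPM of the lowest WT wound.

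Cell division genes had mostly negative log2 fold changes and were seldom called. Of 48 cell cycle genes 41 were negative, with a median of -0.46, and 1 was called, the spindle checkpoint kinase Ttk (-1.33, adjusted p = 0.034). Mki67 (-0.77, adjusted p = 0.163) and Top2a (-1.07, adjusted p = 0.0971) did not pass. Of 26 unfolded protein response and chaperone genes 1 fell, Chac1 (-2.38), and the chaperone Hspa5 did not pass (0.32, adjusted p = 0.508). Of 14 EGF family and 20 tricarboxylic acid cycle genes edgeR called 0, with 3 and 1 at an unadjusted p under 0.05 and 1 called lower by DESeq2 in each. Without Col5a1CKO d and g, 4 EGF family genes were called lower and 1 higher. Among 17 clock genes Clock fell (-1.05) and Nfil3 rose (1.27).

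The same contrast was read in other wounds of the series, 4 WT and 4 Col5a1CKO at day 14, which share no library with the 14 above. The study describes these groups as given vehicle, and their titles do not name it. That experiment called 2707 genes higher (17.5%) and 2066 lower (13.4%) of 15435 tested. The animals were given PBS as the vehicle of a drug. Of the 800 genes that rose, 797 were tested there, all 797 had the same sign and 708 (88.8%) were called higher. Of the 389 that fell, 382 were tested, all 382 had the same sign and 308 (80.6%) were called lower. As shares of the vehicle calls tested here, these were 27.8% and 16.4%. Il1b, not called above, was called there (log2 fold change 7.39), as were Tnf (5.63) and Nlrp3 (6.51). All 15 pan-leukocyte genes were called higher in the vehicle wounds, as were 18 of 31 endothelial genes, while 19 of 24 cholesterol synthesis and 34 of 76 ribosomal protein genes fell. Some genes that rose above were not called there, among them Cdh5 (1.84), Kdr (1.79), Pdgfrb (2.15) and En1 (1.50), and Higd1a (-1.13) was not called there among those that fell. Of the T and NK cell markers 9 rose and 4 fell, Cd3e among the latter (-1.07). Whether the effects differ between the experiments was not tested.

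**Figure D4:**
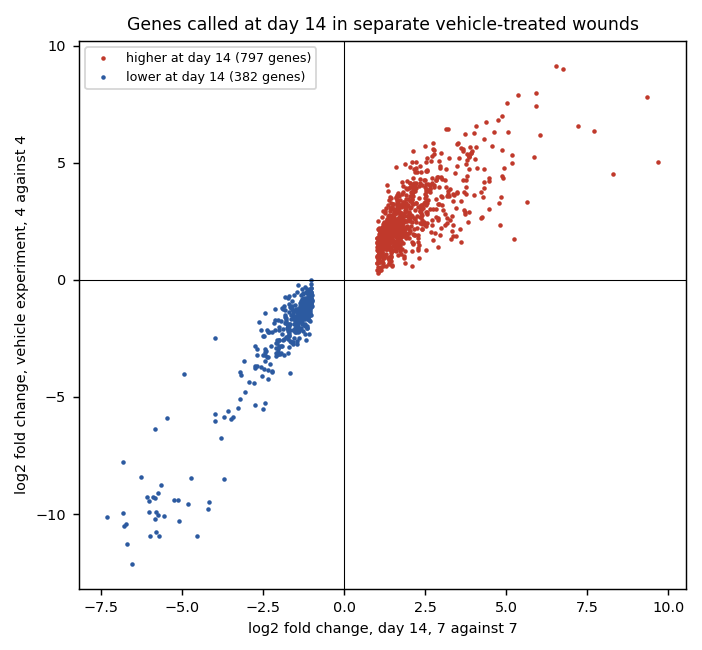
Each point is a gene called in the day 14 comparison, with its log2 fold change there (7 against 7 wounds) on the horizontal axis and in the separate vehicle-treated wounds (4 against 4) on the vertical axis. The 797 higher genes (red) and 382 lower genes (blue) that were tested in both lie on the same side of 0 in both.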

How the data were processed

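RNA was measured in day 14 wounds of 7 WT and 7 Col5a1CKO samples. Reads were aligned to mm9 with Hisat2, allowing each read to align once, and SeqMonk quantified the exons of RefSeq genes, as the study's methods state. The raw counts that the authors deposited were used here with no other normalization, and the row with the largest total was kept for each of 22831 gene symbols. The library kit was stranded, and whether counting used strand is not given in the sources used here. The wounds held 15043838 to 35535049 counts each (median 18147874 in WT and 22256013 in Col5a1CKO), and no pair within a group differed by as little as sampling noise (chi-square per degree of freedom of at least 56.5).

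The design was fitted in edgeR 4.0.16 (R 4.3.3) by its robust quasi-likelihood test with TMM normalization, filterByExpr at a minimum count of 10 and Benjamini-Hochberg adjustment over 14368 genes. A gene was called at an adjusted p under 0.05 and at least 2-fold. The study used DESeq2, which (version 1.42.0) was an alternative here. The other alternatives were RLE size factors, library size only, every gene with at least 1 count and a replicate block by letter. Further ones were the library set as a covariate, each set alone, the longest transcript per symbol and a 3-fold threshold. In another, all day 14 and day 19 groups were fitted together, the fibroblast-treated Col5a1CKO wounds included. A GC offset in 20 bins, the fit without Col5a1CKO d and g and the leaving out of each replicate were chosen after seeing the data. The same test was run on the deposited raw counts of 8 vehicle-treated wounds. The scripts were tested on simulated data.

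Members of 52 gene lists were described by counts of calls and medians, with no set test. The genes named were taken from Col5a1, the 10 higher and 10 lower genes with the smallest adjusted p among those called, without overlap, with the same sign in both library sets and at least 10 CPM in the higher group, and in each list up to 4 called members per direction with its first 2 members. The genes of the lists and the comparison were chosen with earlier results of these data known. Levels are CPM, which do not allow for gene length, so they are compared between wounds and not between genes. Counting intervals are exact and cover counting error only. Some genes that the rule names are not reported here. Promoters came from RefSeq (GRCm38.p6).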

Additional observations from a re-analysis of the deposited data

Results flagged for a closer look

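The effect of genotype differed between the library sets in 15 of 15933 genes by edgeR's interaction term (2406 at an unadjusted p under 0.05). In 14 of them the log2 fold change was higher in the upper set, and they included matrix genes of fibroblasts. For Dcn, the proteoglycan decorin, the interaction was 2.75 on the log2 scale (adjusted p = 0.0372). In the lower set its level spanned 3030 to 4440 CPM across WT wounds and 2340 to 5180 CPM across Col5a1CKO wounds, and in the upper set 168 to 213 CPM against 839 to 1880 CPM. The same holds for Lum, lumican (2.95), at 65.3 to 99.4 CPM against 406 to 820.0 CPM in the upper set and overlapping ranges in the lower set. Kera, keratocan, had the largest term (5.19) and Aspn, asporin, one of 2.81 (adjusted p = 0.0441). The others were AW551984 (2.20), C1qtnf3 (3.80), Cd302 (2.54), Csrp2 (2.86), Gm11818 (3.08), Gpx8 (2.11), Mgp (3.55), Itm2a (2.79), Zfp9 (2.03) and Tfpi2 (2.67). Gpr125 had the opposite sign (-2.55). In the upper set the WT and Col5a1CKO wounds also differ in sex, and the part of sex and of library processing was not tested.

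Single wounds stood far from the rest of their group in 15 of 354 gene groups examined by Dixon's ratio, where chance gives about 1 in 20. Among immune genes these were Ngp in WT c (3.82 CPM, the others 0 to 0.641), Cd4 in WT c (0.487 CPM, the others 3.62 to 5.50), Ncf4 in WT c (26.4 CPM, the others 8.31 to 11.4), and Cxcl5 and Ccl7 in Col5a1CKO g (10.8 CPM, the others 165 to 832, and 18.6 CPM, the others 96.1 to 277). Among vessel and growth factor genes they were Eng in Col5a1CKO f (192 CPM, the others 48.4 to 78.5), Notch4 in WT c (0.209 CPM, the others 3.91 to 8.68), Vegfa in WT g (157 CPM, the others 36 to 49.7), Bmpr1a in Col5a1CKO f (61.2 CPM, the others 121 to 202) and Frzb in WT a (0.639 CPM, the others 0 to 0.230). Among metabolic and ribosomal genes they were Gstk1 in WT a (52.0 CPM, the others 23.8 to 30.1), Insig2 in WT c (60.4 CPM, the others 79.7 to 93.9), Ebp and Tm7sf2 in Col5a1CKO g (68.2 CPM, the others 19.0 to 31.7, and 9.83 CPM, the others 0.932 to 2.88) and Rpl3 in Col5a1CKO d (244 CPM, the others 107 to 144).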

How the results depend on the processing

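The 800 higher and 389 lower genes became 1245 and 850 with DESeq2, 1520 and 906 with all groups in one fit, 1414 and 594 with the library set as a covariate, 532 and 423 in the lower set alone, 1350 and 63 in the upper set alone, and 455 and 171 at 3-fold. The lower genes numbered 246 with library size only, 596 with a GC offset and 1538 without Col5a1CKO d and g, where the higher genes numbered 1018, 804 and 1084. Library size only put the median of all genes at a log2 fold change of 0.13. Leaving out 1 wound gave 494 (without Col5a1CKO a) to 926 higher and 191 (without Col5a1CKO a) to 984 (without Col5a1CKO g) lower genes. Without Col5a1CKO f 499 were higher, and without b, c, e and f 224, 212, 220 and 230 were lower. RLE size factors, no filter and the longest transcript gave 803 to 889 and 393 to 427. A replicate block by letter gave counts of 774 and 543. The correlations of same-lettered deviations ran from -0.397 to 0.484, and from -0.229 to 0.162 with the means of the library sets removed. Wounds of different letters were not compared in this way, so whether the letters pair wounds was not tested. The Col5a1 difference passed the threshold with DESeq2 (-1.42), all groups (-1.43), the set covariate (-1.31) and the lower set alone (-1.87). None of the 144 called genes named in the report changed sign under any alternative, and 116 to 144 kept an adjusted p under 0.05 when 1 wound was left out, 134 with the GC offset, 123 with the block, 90 in the lower set and 64 in the upper set. Some of the 144 were chosen for the same sign in both library sets. The small upper set (3 WT and 2 Col5a1CKO wounds), the sex difference within it, the GC difference between genotypes in the lower set and wounds d and g limit the comparison, and genes below a few CPM rest on few counts.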
